A study of Mus musculus with 12 samples.

Results

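The fibrillar collagens are the collagens that assemble into the banded fibrils of scar tissue. The 6 genes examined, Col1a1, Col1a2, Col3a1, Col5a1, Col5a2 and Col5a3, were taken by gene name from the 21936 mouse genes of the deposited table. No measured value entered this rule, but the genes were chosen with earlier results of these data known. RNA came from livers of male C57BL/6 J mice, bought at 6 weeks of age, which had all received carbon tetrachloride (CCl4, a hepatocyte poison) at 1 mL/kg into the peritoneum, 2 times a week over 8 weeks. The liver fibrosis group (LFG) was killed when the injections ended. The regression group (REG) then had tail vein injections of 200 µL of saline, and the hADMSCs-Exo group had 250 µg of exosome protein in the same volume, 2 times a week over 4 weeks. hADMSCs-Exo are vesicles that cultured mesenchymal stem cells from human fat release. Each of the 3 groups had 3 libraries, those of hADMSCs-Exo being columns headed MSC_E, a heading that was read as the exosome group and that no label spells out, and the hADMSCs group and livers without CCl4 were not analysed here. LFG differs from the other groups in the time since the last CCl4 as well as in treatment, so that a comparison with LFG joins both.

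Collagen chains are made as procollagens, which fold into a triple helix in the endoplasmic reticulum and form fibrils once their ends have been cut off outside the cell. Type I collagen, from Col1a1 and Col1a2, is the bulk protein of scar. Type III, from Col3a1, shares fibrils with it, and type V, from Col5a1, Col5a2 and Col5a3, sits within type I fibrils, where it starts fibril assembly and limits fibril diameter. In the liver, the genes of type I and type III collagen are read mainly in hepatic stellate cells and portal fibroblasts. Stellate cells become contractile myofibroblasts after injury. The data come from whole liver, in which fewer cells of a type and less RNA per cell cannot be told apart.

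All 6 genes lie on different stretches of GRCm38, the build of the table. Col1a1 (ENSMUSG00000001506) is on chromosome 11 from 94936224 to 94953042 on the plus strand, and Col1a2 (ENSMUSG00000029661) on chromosome 6 from 4504814 to 4541544 on the plus strand. Col5a1 (ENSMUSG00000026837) is on chromosome 2 from 27886425 to 28039514 on the plus strand, and Col5a3 (ENSMUSG00000004098) on chromosome 9 from 20770050 to 20815067 on the minus strand. Col3a1 (ENSMUSG00000026043) and Col5a2 (ENSMUSG00000026042) are neighbours on chromosome 1, the former from 45311538 to 45349706 on the plus strand and the latter from 45374321 to 45503282 on the minus strand. Their 3' ends face each other across 24614 bases. Each gene is spread over many exons, from 48 in Col1a2 to 67 in Col5a3. Stretches of 50 bases that also occur in a transcript of another gene made up 0% of those of Col1a1, Col5a1, Col5a2 and Col5a3, 0.0635% for Col1a2 and 0.927% for Col3a1, the last all in a microRNA gene inside it, and no such stretch was shared between the members. Transcripts of the opposite strand overlap 500 and 182 exon bases of Col5a1, and whether strand was used in counting is not given in the sources used here.

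Promoters were looked at because 5 of the genes were ordered alike over the libraries and Col5a3 was not. RefSeq's promoter table for GRCm38.p6 held 4 of the 6 members, Col1a2, Col3a1, Col5a1 and Col5a3. The 250 bases before the RefSeq start are shown 5' to 3' for 2 of those 5 and for Col5a3, at chr1:45311288-45311537 on the plus strand, chr2:27886175-27886424 on the plus strand and chr9:20815068-20815317 on the minus strand. Capitals mark the letters CCAAT for the CCAAT box, GGGCGG for the GC box and TATAAA for the TATA box, each searched on both strands, and no matches overlap.
Col3a1: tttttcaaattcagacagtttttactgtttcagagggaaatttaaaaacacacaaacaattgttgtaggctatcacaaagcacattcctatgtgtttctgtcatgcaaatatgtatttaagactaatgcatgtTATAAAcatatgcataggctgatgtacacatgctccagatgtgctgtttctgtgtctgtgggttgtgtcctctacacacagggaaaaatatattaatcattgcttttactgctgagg
Col5a1: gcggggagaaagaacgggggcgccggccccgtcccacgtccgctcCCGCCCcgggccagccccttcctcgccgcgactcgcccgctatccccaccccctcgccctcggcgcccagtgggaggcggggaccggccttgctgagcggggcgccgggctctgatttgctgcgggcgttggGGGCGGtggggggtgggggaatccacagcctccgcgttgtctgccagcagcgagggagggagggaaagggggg
Col5a3: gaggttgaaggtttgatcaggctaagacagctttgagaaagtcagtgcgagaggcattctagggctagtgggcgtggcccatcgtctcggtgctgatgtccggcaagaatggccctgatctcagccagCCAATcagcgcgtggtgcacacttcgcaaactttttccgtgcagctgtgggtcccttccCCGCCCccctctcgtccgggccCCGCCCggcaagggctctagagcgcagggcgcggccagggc
The Col3a1 window held 1 match to the letters of the TATA box, at -117 to -112 from the RefSeq start. It held neither of the other motifs, at 35.2% G and C. The Col5a1 window held 2 GC boxes at 76.4% G and C. The Col5a3 window held 2 GC boxes and 1 CCAAT box at 62.8%, and the window of Col1a2, which lies in part in an exon of the GENCODE annotation and is not printed, held the same number of each at 62%. Of all 32851 promoter windows of this length, 33.8% held a CCAAT box, 32.7% a GC box and 12.4% a TATA box, and their median G and C content was 52.4%. By these letters Col5a3 and Col1a2 had equal counts.

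One library stands apart. LFG 3 had 13837445 counts and 13924 genes detected, where the other 8 libraries had 16452202 to 19840917 counts and 14539 to 15248 genes. It differed most from its own group, with a chi-square per gene of 299 against LFG 1 and 228 against LFG 2. LFG 1 and LFG 2 differed by 72.4, and pairs within the other groups by 27 to 87.9. The differences of the members from LFG are therefore given with and without it.

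Levels are given as FPKM, counts scaled to the length of the gene and the total of the library, which allows chains of different length to be compared. All but Col5a3 were highest in LFG 1 and next in LFG 2. Col1a1 stood at 54.3, 21.1 and 0.33 FPKM in LFG 1, 2 and 3, at 2.82, 3.98 and 2.30 in REG, and at 0.898, 1.93 and 1.32 in hADMSCs-Exo. Col1a2 stood at 33.6, 15.8 and 0.25 FPKM in LFG, at 2.76, 3.43 and 1.78 in REG, and at 0.577, 1.82 and 1.21 in hADMSCs-Exo. LFG 1 was the highest and LFG 3 the lowest of all 9 libraries for both chains of type I collagen. REG and hADMSCs-Exo did not overlap for Col1a1, and for Col1a2 they touched in FPKM, where hADMSCs-Exo 2 lay just above REG 3. Col3a1, the chain of type III collagen, stood at 77.1, 36.3 and 0.633 FPKM in LFG, at 5.90, 7.99 and 4.39 in REG, and at 1.10, 2.85 and 1.81 in hADMSCs-Exo. It was the most abundant of the 6 chains in LFG 1, LFG 2 and every REG library.

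Col5a1, the chain found in most type V collagen, stood at 6.42, 2.40 and 0.203 FPKM in LFG, at 0.645, 0.705 and 0.483 in REG, and at 0.327, 0.454 and 0.406 in hADMSCs-Exo. Col5a2, its usual partner in the triple helix, stood at 7.73, 3.41 and 0.196 FPKM in LFG, at 0.895, 1.07 and 0.709 in REG, and at 0.437, 0.285 and 0.510 in hADMSCs-Exo. Both lay about an order of magnitude below Col3a1 in LFG 1 and LFG 2, and for both each REG library lay above each hADMSCs-Exo library. Col5a3, a type V chain of more limited occurrence, had another order, with 2.04, 3.93 and 10.8 FPKM in LFG, 1.95, 2.74 and 3.36 in REG, and 3.33, 3.84 and 4.12 in hADMSCs-Exo. LFG 3 was the highest library for Col5a3 and the lowest for the other 5 genes, and hADMSCs-Exo 1 reached just below REG 3, so that these groups overlapped. The counts behind the lowest values were 30, 43, 86, 24 and 26 in LFG 3 for Col1a1, Col1a2, Col3a1, Col5a1 and Col5a2, against 1021 for Col5a3.

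**Figure D1:**
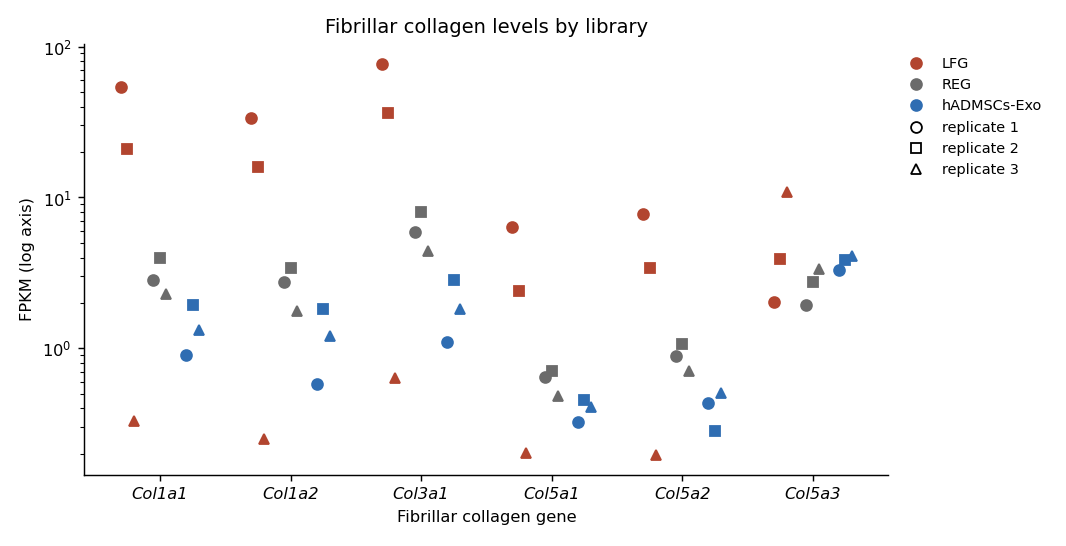
FPKM (log axis) of each fibrillar collagen gene, 1 point per library, coloured by group and shaped by replicate number. For 5 genes LFG 1 is the highest and LFG 3 the lowest of the 9 libraries, while for Col5a3 LFG 3 is the highest at 10.8 FPKM.

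The order of the levels of the chains differed between groups. In REG, Col3a1 led with 6.09 ± 1.81 FPKM (SD, n = 3), followed by Col1a1 (3.03 ± 0.857), Col5a3 (2.68 ± 0.708) and Col1a2 (2.66 ± 0.830), whose ranges overlapped each other, and then by Col5a2 (0.891 ± 0.179) and Col5a1 (0.611 ± 0.115). In hADMSCs-Exo, Col5a3 led with 3.76 ± 0.399 FPKM (SD, n = 3), above all libraries of Col3a1 (1.92 ± 0.880), Col1a1 (1.38 ± 0.521) and Col1a2 (1.2 ± 0.623), which overlapped each other, while Col5a2 (0.411 ± 0.115) and Col5a1 (0.396 ± 0.0644) came last and overlapped. In LFG the spread exceeded the mean or nearly so, with Col3a1 at 38.0 ± 38.2 and Col1a1 at 25.2 ± 27.2 FPKM (SD, n = 3). Without LFG 3, these means were 56.7 ± 28.8 and 37.7 ± 23.4 (SD, n = 2).

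The make-up of fibrillar collagen RNA shifted with these levels. The summed FPKM of the 6 chains was 181, 82.9 and 12.4 in LFG 1, 2 and 3. It ranged from 13.0 to 19.9 in REG and from 6.66 to 11.2 in hADMSCs-Exo, without overlap. Col5a3 made up 13.0% to 25.8% of this sum in REG and 34.3% to 50% in hADMSCs-Exo, but 1.13% in LFG 1, 4.74% in LFG 2 and 87.0% in LFG 3. The share of Col3a1 was 33.7% to 40.1% in REG and 16.4% to 25.5% in hADMSCs-Exo. The share of Col1a1 was 17.7% to 20% in REG and 13.5% to 17.3% in hADMSCs-Exo, while those of Col1a2, Col5a1 and Col5a2 overlapped between these groups.

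**Figure D2:**
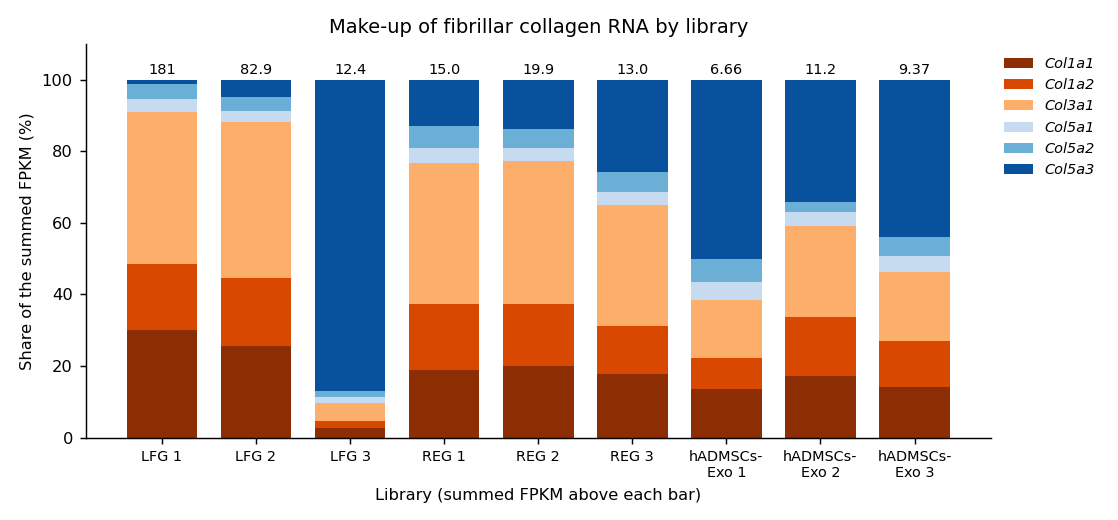
Share of each chain in the summed FPKM of the 6 fibrillar collagen genes in each library, with the summed FPKM above each bar. Col3a1 is the largest share in LFG 1, LFG 2 and all REG libraries, and Col5a3 in LFG 3 (87.0%) and all hADMSCs-Exo libraries.

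To ask whether exosomes lowered fibrillar collagen beyond recovery in saline, hADMSCs-Exo was compared to REG. Of the 6 genes, 5 were lower and Col5a3 was higher in hADMSCs-Exo, but 0 of 6 passed in edgeR's quasi-likelihood test after adjustment by Benjamini-Hochberg. The limits were those of the study, at least a doubling or halving and an adjusted p under 0.05, but the test was not the study's own. Such a difference was found in 0.00811% of all 12337 genes tested. The p before adjustment was under 0.05 for 5 of the 6 genes, all lower in hADMSCs-Exo, where 4.69% of all genes tested were lower at that p. With the limit on fold change as well, 4 of 6 and 2.16% of all genes were left. In counts scaled to a common library size with TMM factors (CPM), 5 of 6 genes had each hADMSCs-Exo library below each REG library, which 7.82% of all genes did.

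Col3a1 had the largest difference between hADMSCs-Exo and REG, at -1.73 on the log2 scale (standard error 0.36, 3.31-fold lower, adjusted p = 0.358 in edgeR's quasi-likelihood test). Col1a1 differed by -1.19 (standard error 0.31, 2.29-fold lower, adjusted p = 0.394) and Col1a2 by -1.20 (standard error 0.41, 2.3-fold lower, adjusted p = 0.428). Both chains of type I collagen thus differed by nearly the same factor. Col5a2 differed by -1.17 (standard error 0.29, adjusted p = 0.38) and Col5a1 by -0.68 (standard error 0.26, adjusted p = 0.463), the smallest of the 5 lower genes. Col5a3 differed by 0.43 (standard error 0.22, adjusted p = 0.554), with a 95% interval from -0.08 to 0.94. The median log2 fold change was -1.18 for the 6 genes and 0.01 for all genes tested. DESeq2 passed 3 of 6, Col1a1, Col3a1 and Col5a2, where it passed 0.501% of 13568 genes, and over all alternatives the adjusted p of Col3a1 ran from 0.000336 to 1.00. Without any of the 6 libraries in turn, 0 of 6 passed in edgeR.

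Compared to LFG, all 6 genes were lower in hADMSCs-Exo, but 0 of 6 passed, as did 0% of 12489 genes tested. Log2 fold changes were -3.97 for Col3a1 (standard error 1.28), -3.84 for Col1a1 (1.3), -3.44 for Col1a2 (1.28), -2.87 for Col5a2 (0.96), -2.59 for Col5a1 (0.89) and -0.68 for Col5a3 (0.71), with an adjusted p of 0.805 for the first 5 and 0.906 for Col5a3 (edgeR's quasi-likelihood test). For all 6 the groups overlapped. The p before adjustment was under 0.05 for 5 of 6, all lower, where 3.68% of all genes tested were lower at that p. All 5 were also past the limit on fold change, as were 2.99% of all genes in either direction, and DESeq2 passed 2 of 6, where it passed 0.422% of 13745 genes. Without LFG 3, 5 of 6 passed, all lower, where 4.50% of 12955 genes passed as lower. Col3a1 then differed by -4.51 and Col1a1 by -4.38, both with an adjusted p of 0.00952, and Col1a2, Col5a1 and Col5a2 by -3.98, -3.09 and -3.38, with an adjusted p of 0.0158, 0.0142 and 0.0104. Without LFG 3, Col5a3 was higher, by 0.60 (standard error 0.36, adjusted p = 0.306), where it was lower with all libraries. Without LFG 1, the highest library, the differences were smaller, with Col1a1 at -2.83, Col1a2 at -2.61, Col3a1 at -3.14, Col5a1 at -1.63 and Col5a2 at -2.03, and 0 of 6 passed (adjusted p = 0.992 each). With same-numbered libraries as pairs, these values were -2.82, -2.56, -3.05, -1.95 and -2.32, and 0 of 6 passed.

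REG was compared to LFG to see what 4 weeks without CCl4 changed. All 6 genes were lower in REG, and again 0 of 6 passed, as did 0% of 12517 genes tested. Log2 fold changes were -2.61 for Col1a1 (standard error 1.21), -2.21 for Col1a2 (1.17), -2.21 for Col3a1 (1.16), -1.87 for Col5a1 (0.85), -1.66 for Col5a2 (0.89) and -1.11 for Col5a3 (0.74), with adjusted p from 0.465 to 0.595 (edgeR's quasi-likelihood test). The p before adjustment was under 0.05 for 0 of 6, where 6.70% of all genes tested were lower at that p. Limma with voom and quality weights, which gives less weight to libraries that depart from their group, passed 5 of 6, where it passed 10.3% of all genes. Without LFG 3, 5 of 6 passed, all lower, where 6.94% of 12948 genes passed as lower. Col1a1 then differed by -3.15, Col1a2 and Col3a1 each by -2.75, Col5a1 by -2.37 and Col5a2 by -2.17, and Col5a3 was higher by 0.21. Without LFG 1, the differences were -1.61 for Col1a1, -1.38 for Col1a2, -1.39 for Col3a1, -0.92 for Col5a1 and -0.83 for Col5a2, and 0 of 6 passed (adjusted p from 0.500 to 0.813 over the 6 genes). All 3 comparisons share libraries, so that their values are not independent of each other.

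**Figure D3:**
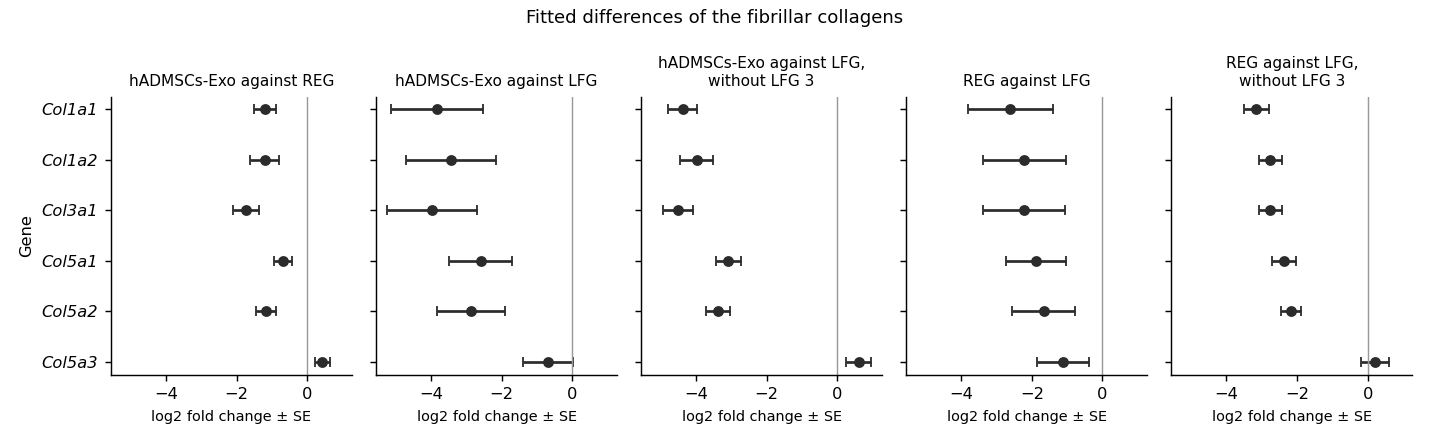
Log2 fold change (± standard error, edgeR) of the 6 genes in each comparison, with and without LFG 3 where LFG takes part. Col5a3 lies to the right of the other 5 genes in every panel. Leaving out LFG 3 shortens all error bars and turns Col5a3 from -0.68 to 0.60 in hADMSCs-Exo against LFG.

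Ratios of FPKM between chains, of the same collagen type or of different types, were taken within each library, where the scaling of the library cancels. Groups were compared by a two-sided exact permutation test, which cannot go below p = 0.1 for 3 against 3 libraries, with adjustment over the 12 ratio tests. None could therefore pass, and overlap of the libraries is given beside the size.

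The ratio of Col3a1 to Col1a1 was 2.09, 2.01 and 1.91 in REG and 1.22, 1.47 and 1.37 in hADMSCs-Exo, without overlap. The log2 difference was -0.57 (exact permutation p = 0.1, adjusted p = 0.3). In LFG it was 1.42, 1.72 and 1.92. Here LFG 3 did not stand apart, although its levels of both chains were below all other libraries. Leaving out any library kept the difference between hADMSCs-Exo and REG from -0.63 to -0.49. Type III thus lay lower relative to type I in each hADMSCs-Exo library than in each REG library.

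The ratio of Col1a1 to Col1a2 was 1.61, 1.34 and 1.32 in LFG, 1.02, 1.16 and 1.3 in REG, and 1.56, 1.06 and 1.09 in hADMSCs-Exo. Its size depends on the gene length used, which is 12426 bases for Col1a2 and 6563 for Col1a1, but differences between libraries do not. REG lay below LFG without overlap, by a log2 difference of -0.30 (exact permutation p = 0.1, adjusted p = 0.3) and of -0.35 without LFG 3. Between hADMSCs-Exo and REG it differed by 0.08 (exact permutation p = 0.8), and the sign turned without hADMSCs-Exo 1 (-0.10) or REG 1 (-0.0118). The ratio of the type I chains thus stayed between 1.02 and 1.61 while Col1a1 itself ran from 0.33 to 54.3 FPKM.

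The ratio of Col5a2 to Col5a1 was 1.39, 1.51 and 1.47 in REG and 1.34, 0.627 and 1.26 in hADMSCs-Exo, without overlap, with a log2 difference of -0.52 (exact permutation p = 0.1, adjusted p = 0.3). This difference was -0.17 without hADMSCs-Exo 2, the library with 45 counts of Col5a2. In LFG the ratio was 1.2, 1.42 and 0.967.

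The sum of the type V chains relative to the sum of the type I chains was 0.625, 0.609 and 1.12 in REG and 2.77, 1.22 and 1.99 in hADMSCs-Exo, without overlap, with a log2 difference of 1.33 (exact permutation p = 0.1, adjusted p = 0.3). Without Col5a3 in the sum, an alternative added after the values had been seen, the difference was 0.31 and the groups overlapped, with 0.276, 0.239 and 0.292 in REG and 0.518, 0.197 and 0.362 in hADMSCs-Exo. In LFG the full ratio was 0.184, 0.264 and 19.4, and of these only LFG 3 was above 1. The ratio of Col5a3 to Col5a1, which was chosen after the values had been seen and is given without a test, was 0.318, 1.64 and 53.5 in LFG, 3.02, 3.89 and 6.96 in REG and 10.2, 8.45 and 10.1 in hADMSCs-Exo.

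**Figure D4:**
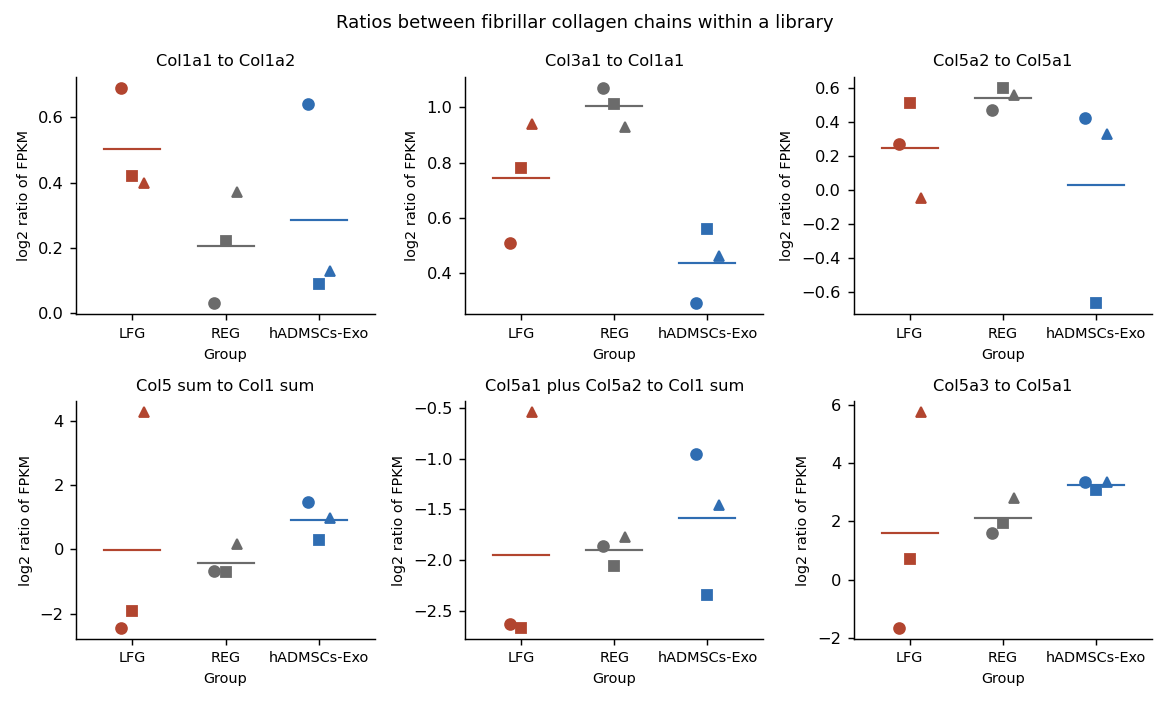
Log2 ratio of FPKM between chains within each library, by group, with the group mean as a line and replicate numbers as circle (1), square (2) and triangle (3). For Col3a1 to Col1a1 each hADMSCs-Exo library lies below each REG library, and in the lower 3 panels, 2 of which include Col5a3, LFG 3 stands far above LFG 1 and LFG 2.

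The genome has 5 further fibrillar chains, found mostly in cartilage, eye and other tissues. Col2a1, the main collagen of cartilage, had 0 counts in all 9 libraries, which allows up to 3 counts in each, and Col11a1 had 1 count in LFG 1 and 0 elsewhere. Col24a1 had at most 7 counts in a library. Col11a2 had 14 to 16 counts in REG and 15 to 27 in hADMSCs-Exo, a log2 difference of 0.51 (standard error 0.39, adjusted p = 0.672 in edgeR's quasi-likelihood test). Col27a1 stood at 0.716, 2.17 and 4.88 FPKM in LFG, 0.885, 0.868 and 2.11 in REG, and 1.24, 3.65 and 2.13 in hADMSCs-Exo. It resembled Col5a3 in that LFG 3 was its highest library, and it differed by 0.80 between hADMSCs-Exo and REG (standard error 0.46, adjusted p = 0.585).

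Of the genes for the synthesis, folding, trimming and crosslinking of procollagen, 24 of 31 listed were tested between hADMSCs-Exo and REG. At an unadjusted p under 0.05, 5 were lower and 1 was higher, where 4.69% of all genes tested were lower and 5.34% higher, and 0 passed after adjustment. The median log2 fold change was -0.07. Loxl1, a crosslinking enzyme, stood at 1.18, 1.46 and 0.535 FPKM in REG and at 0.184, 0.442 and 0.25 in hADMSCs-Exo, -1.91 on the log2 scale (standard error 0.49, adjusted p = 0.38 in edgeR's quasi-likelihood test). Adamts2, which cuts the N-terminal ends off type I and III procollagen, stood at 0.861, 0.890 and 0.524 FPKM in REG and at 0.169, 0.455 and 0.296 in hADMSCs-Exo, -1.36 on the log2 scale (standard error 0.39, adjusted p = 0.407). Neither gene overlapped between these groups. Between REG and LFG both differed by -1.04 (adjusted p = 0.62 and 0.65), and without LFG 3 both passed as lower, at -1.50 (adjusted p = 0.0426) and -1.54 (adjusted p = 0.0159). P4ha1 and P4ha2, the catalytic subunits of prolyl 4-hydroxylase, which stabilises the triple helix, did not share this order. P4ha1 was lower in each REG library (2.07 to 3.94 FPKM) than in each LFG library (11.7, 9.97 and 5.41), by -1.46 on the log2 scale (standard error 0.29, adjusted p = 0.262) and by -1.56 without LFG 3 (adjusted p = 0.0159). P4ha2 was 0.552 to 0.731 FPKM in REG and 1.43, 1.70 and 1.56 in LFG, a log2 fold change of -1.09 (adjusted p = 0.353) and of -0.84 without LFG 3 (adjusted p = 0.0723).

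Among collagens that decorate fibrils, 5 of 10 listed were tested between hADMSCs-Exo and REG, with a median of -0.59. Col14a1 stood at 7.45, 7.53 and 4.73 FPKM in REG and at 1.96, 6.44 and 2.73 in hADMSCs-Exo, with overlap (log2 fold change -0.89, standard error 0.41, adjusted p = 0.514). Its level in REG was above that of Col3a1 in 2 of 3 libraries. Col16a1 had a log2 fold change of -0.86 and Col12a1 of -0.32. Between REG and LFG, Col16a1 differed by -0.67 (adjusted p = 0.744) and by -1.13 without LFG 3 (adjusted p = 0.0711), and Col12a1 by -1.79 (adjusted p = 0.392) and by -2.20 without LFG 3 (adjusted p = 0.0158). Col20a1 was higher in each hADMSCs-Exo library (0.390 to 0.638 FPKM) than in each REG library (0.128 to 0.198), by 1.52 on the log2 scale (standard error 0.36, adjusted p = 0.358).

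Of the collagen receptors, 8 of 10 listed were tested, 4 lower and 4 higher in hADMSCs-Exo than in REG, 0 of them at an unadjusted p under 0.05, with a median of -0.02. Ddr2, a receptor kinase that fibrillar collagen activates, differed by -1.03 on the log2 scale (standard error 0.46, adjusted p = 0.498 in edgeR's quasi-likelihood test), and Mrc2, which takes collagen up for breakdown, by -0.91 (standard error 0.48, adjusted p = 0.560). Between REG and LFG, Mrc2 differed by -1.50 (adjusted p = 0.548) and the integrin gene Itga10 by -2.17 (adjusted p = 0.309). Without LFG 3 both passed as lower, at -2.01 (adjusted p = 0.0153) and -1.63 (adjusted p = 0.0442).

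Of the collagenases and gelatinases, 6 of 7 listed were tested, 4 higher and 2 lower in hADMSCs-Exo than in REG, with a median of 0.37. Mmp2, a gelatinase made by stellate cells, was lower in each hADMSCs-Exo library than in each REG library. It stood at 9.69, 12.5 and 0.129 FPKM in LFG, 2.76, 3.01 and 1.88 in REG, and 0.433, 0.973 and 0.856 in hADMSCs-Exo, a difference of -1.81 on the log2 scale between the latter groups (standard error 0.35, adjusted p = 0.358). Mmp8, the neutrophil collagenase, was higher in hADMSCs-Exo by 1.61 (standard error 0.56, adjusted p = 0.432), with overlap. Mmp13, the main interstitial collagenase of the mouse, stood at 3.23, 0.614 and 0.027 FPKM in LFG and at 0.189 to 0.359 in REG and 0.205 to 1.06 in hADMSCs-Exo. Ctsk, a lysosomal collagenase, was lower in REG (0.872 to 1.11 FPKM) than in each LFG library (5.29, 4.58 and 1.24), by -1.63 (standard error 0.46, adjusted p = 0.335) and, without LFG 3, by -1.93 (adjusted p = 0.0153).

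The list for TGF-beta signaling, the best known inducer of collagen genes, held 14 symbols of 13 genes, as Ccn2 and Ctgf name 1 gene. All 13 were tested between hADMSCs-Exo and REG, with a median of 0.12. There was 1 gene at an unadjusted p under 0.05, a share near the 10.0% of all genes tested. That gene was Skil, an inhibitor of Smad proteins that TGF-beta itself induces. It stood at 4.65, 4.80 and 0.820 FPKM in LFG, 0.731, 0.659 and 0.925 in REG, and 1.61, 1.81 and 1.63 in hADMSCs-Exo, higher there than in REG by 1.07 (standard error 0.18, adjusted p = 0.353 in edgeR's quasi-likelihood test). In this comparison Skil thus differed in the direction opposite to all members but Col5a3. Tgfb3 was lower in each hADMSCs-Exo library than in each REG library (log2 fold change -0.82, adjusted p = 0.536).

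**Figure D5:**
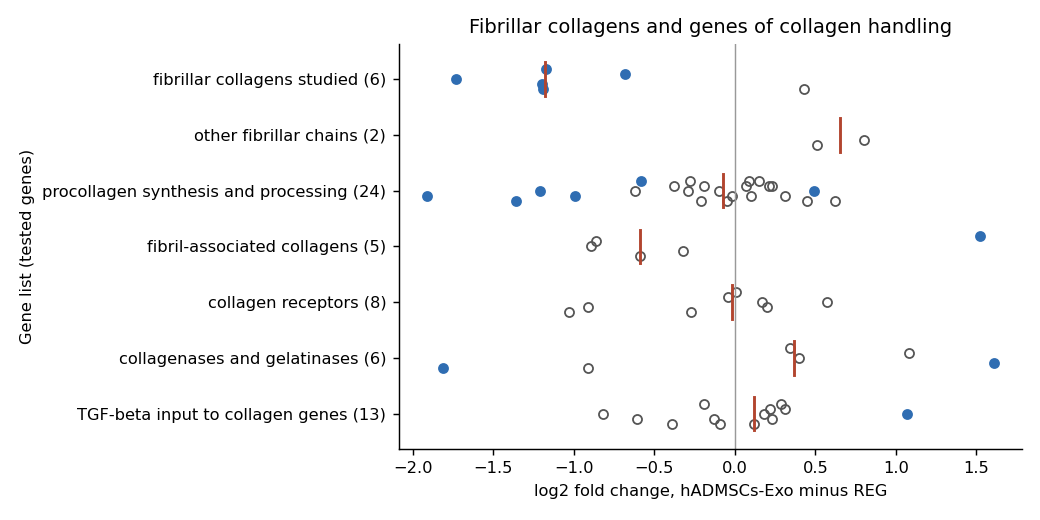
Log2 fold change of hADMSCs-Exo minus REG for the 6 fibrillar collagens and for the tested genes of 6 lists of collagen handling (number tested in parentheses), with filled points at an unadjusted p under 0.05 and the median as a bar. The fibrillar collagens have a median of -1.18, while the medians of the other lists lie between -0.59 and 0.66.

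Markers of the cells that make collagen were in part lower in hADMSCs-Exo and in LFG 3 as well. All libraries were rich in Alb, the hepatocyte marker, at 64145 to 139513 CPM. Acta2, the actin of myofibroblasts and smooth muscle, stood at 11.3, 8.03 and 0.230 FPKM in LFG, 3.25, 4.66 and 1.74 in REG, and 0.166, 0.581 and 0.885 in hADMSCs-Exo, on 6 to 33 counts in the last group. Between hADMSCs-Exo and REG it differed by -2.60 on the log2 scale (standard error 0.58, adjusted p = 0.358). Myh11, of smooth muscle, differed by -1.68 (standard error 0.31, adjusted p = 0.358) and Lrat, of stellate cells, by -0.61 (standard error 0.36, adjusted p = 0.596). Thy1, of portal fibroblasts, differed by -0.01, with 48 to 94 counts in the libraries of both groups.

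Of the 7 myofibroblast markers, 5 were tested and 4 were lower in hADMSCs-Exo than in REG, and their summed CPM was 4.35 to 94.7 in LFG, 17.2 to 29.7 in REG and 5.17 to 13.7 in hADMSCs-Exo. Of the 6 smooth muscle markers, 4 were tested and 4 were lower, with sums of 4.08 to 49.6, 11.5 to 20.3 and 3.80 to 6.93 CPM in the same order of groups. Of the 10 stellate cell markers, 9 were tested and 9 were lower, with sums of 76.8 to 186, 109 to 190 and 58.9 to 140 CPM, which overlapped. Of the 8 portal fibroblast markers, 6 were tested and 6 were lower, with sums of 5.94 to 59.8, 22.3 to 36.2 and 9.87 to 22.6 CPM. An unadjusted p under 0.05 was reached by 3 of 5 tested myofibroblast and 4 of 4 smooth muscle markers. It was also reached by 4 of 9 stellate cell and 2 of 6 portal fibroblast markers, and by 10.0% of all genes tested. The lowest sum of each of these 4 lists lay in LFG 3 or hADMSCs-Exo 1, as for type I and type III collagen. Of the 7 hepatocyte markers, 3 were lower in hADMSCs-Exo and 4 higher, and their sum, mostly Alb, was 163200 to 169700 CPM in REG and 121175 to 138513 in hADMSCs-Exo. Sinusoidal endothelium (6 of 6) and red blood cells (5 of 5) also had all tested markers lower in hADMSCs-Exo than in REG, with overlapping sums. In both, 0 markers had an unadjusted p under 0.05. Cholangiocytes had 4 of 5 lower and 1 at that p. Their sums did not overlap, with 14.5 to 16.8 CPM in REG and 10.1 to 10.7 in hADMSCs-Exo. Neutrophils (0 of 4 lower), lymphocytes (1 of 6), Kupffer cells (2 of 6), recruited macrophages (2 of 6) and mesothelium (1 of 3) had more markers higher than lower, and of 2 tested adipocyte markers 1 was lower. Of the 5 bone and cartilage markers, Acan, Col2a1 and Ibsp were at 0 in all libraries. The part of these cell types in the differences of the collagens was not tested.

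The genes most like the mean log2 CPM of the 6 members were sought among 12760 genes, as a description without a test. Over the 9 libraries these were Col6a3 and Fstl1 (Pearson's r = 0.99 each), Phlda3, Cldn4 and Serpinh1 (0.98 each). Serpinh1 encodes the chaperone of procollagen and Col6a3 a chain of microfibrillar type VI collagen. Col6a3 had a log2 CPM of 6.54, 5.76 and 1.65 in LFG, 3.67, 3.89 and 3.60 in REG, and 2.17, 3.23 and 2.72 in hADMSCs-Exo. The 9 values share the contrast of LFG 3 with LFG 1 and LFG 2, which carries much of each r. Over the 6 libraries of REG and hADMSCs-Exo alone, the nearest were Cldn4, Islr, Cdpf1, Cdc23 and Lss (0.99 each), of which Islr had a log2 CPM of 1.86, 2.62 and 1.39 in REG and 0.01, 0.94 and 0.92 in hADMSCs-Exo. Cldn4 was the gene named by both searches, at a log2 CPM below 0 in all 6 of these libraries.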

How the data were processed

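Liver RNA of 9 libraries was analysed. The authors extracted it with Trizol, made libraries with an NEBNext Ultra kit and sequenced them on an Illumina NovaSeq. The submitters' processing notes name cutadapt 1.15, HISAT2 2.0.5, HTSeq 0.9.1, DESeq 1.30.0 and GRCm38. The authors deposited raw counts per gene and, beside them, FPKM, which was recomputed from counts, gene lengths and column sums with a largest relative deviation of 9.19e-07, so that it holds no further scaling. The 3 columns headed MSC_E were taken as the libraries whose treatment label is ADMSCs-Exo. No label states this match, and every hADMSCs-Exo value rests on it, while the samples labelled as hADMSCs were matched to no column.

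Counts were tested with edgeR 4.0.16 (R 4.3.3) by the two-sided quasi-likelihood test, with TMM scaling, genes of low counts removed by filterByExpr, only the 6 libraries compared, and Benjamini-Hochberg adjustment over all genes tested. All 6 members passed the filter in every comparison. Log2 CPM used a prior count of 2 and TMM. Ratios used FPKM and exact permutation tests (scipy 1.17.1, Python 3.11.15). Alternatives were RLE, DESeq2 1.42.0, limma 3.58.1 with voom and quality weights, other filters and call rules, a joint fit of the 9 libraries, a block for the replicate number, and each library left out. The fit was tested on simulated data. Tables used pandas 2.3.3 and plots matplotlib 3.10.9.

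Members, lists and tests were chosen with earlier results of these data known. Genes named beyond the members are the further fibrillar chains with counts, up to 2 per list with the smallest p in hADMSCs-Exo against REG and up to 2 in REG against LFG, 5 defining markers, and the 5 genes most like the members in each search. Col2a1 and the Col5a3 comparisons stand outside this rule. A gene that the rule names is not reported here.

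Libraries held 13837445 to 19840917 counts, and the study gives 3 samples per group without saying whether each came from its own mouse, so that p-values measure the spread between these samples, which may be technical. No library was a repeat of another, the closest replicates having a chi-square of 27 per gene. Deviations from the group means of same-numbered libraries correlated by 0.101, 0.308 and 0.18 for hADMSCs-Exo and LFG. They correlated by 0.159, 0.00935 and 0.0337 for hADMSCs-Exo and REG, and by 0.415, -0.202 and 0.305 for REG and LFG. The main tests did not pair libraries by number, and a block for the number was run as an alternative in each comparison.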

Additional observations from a re-analysis of the deposited data

How the results depend on the processing

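The count of members past the thresholds was 0 of 6 in each comparison and depended on the tool and on LFG 3. Between hADMSCs-Exo and REG it was 3 with DESeq2 and 4 with an unadjusted p and the limit on fold change (2.16% of all genes). Between hADMSCs-Exo and LFG it was 2 with DESeq2 (0.422% of 13745 genes), 5 with the unadjusted p, and 0 to 5 with each library left out. Between REG and LFG it was 5 with voom (10.3% of genes) and 0 to 5 with each library left out. In both comparisons with LFG the count of 5 came without LFG 3. The direction of Col1a1, Col1a2, Col3a1, Col5a1 and Col5a2 held in all alternatives run. Col5a3 turned, to 0.34 with voom between hADMSCs-Exo and LFG, and ran from -1.15 to 0.60 there and from -1.58 to 0.21 between REG and LFG with each library left out.

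Of the ratios, Col1a1 to Col1a2 between hADMSCs-Exo and REG ran from -0.10 to 0.18 with each library left out. The sum of type V to type I chains ran from -0.26 to 3.10 between hADMSCs-Exo and LFG (log2 difference 0.95) and was -1.73 from group means on the linear scale. Between REG and LFG (-0.38) it ran from -1.59 to 1.77 and was 0.0496 without Col5a3. Col5a2 to Col5a1 ran from -0.41 to 0.13 between hADMSCs-Exo and LFG. The causes were not tested. With the replicate number as a block, 0 members passed in each comparison, so that the pairing changed no call, but differences from LFG were smaller, such as -2.82 for Col1a1 and -0.14 for Col5a3 in hADMSCs-Exo and -1.53 and -0.58 in REG. Genes on few counts, such as Col11a2, Col24a1 and Acta2 in hADMSCs-Exo, were limited by depth.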

Other observations

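Because Col5a3 departed from the other fibrillar collagens, the genes most like it were listed after its values had been seen. Over the 9 libraries these were Ptpmt1 (Pearson's r = 0.99), Cyp7b1 (0.98), Onecut2, Churc1 and Ikzf5 (0.97 each), given as a description without a test. Cyp7b1, an oxysterol hydroxylase of bile acid synthesis, had a log2 CPM of 3.03, 4.72 and 8.82 in LFG 1, 2 and 3, of 3.92, 4.96 and 4.74 in REG, and of 5.25, 5.39 and 5.4 in hADMSCs-Exo. Onecut2, a transcription factor of hepatocytes and bile ducts, had 5.38, 5.97 and 6.49 in LFG, 5.56, 5.84 and 5.91 in REG, and 6.00, 5.94 and 6.00 in hADMSCs-Exo. In log2 CPM, LFG 3 was the highest and LFG 1 the lowest library for both, as for Col5a3 on that scale, and the contrast of these libraries carries much of each r.

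With all libraries, 0 genes of each of the 5 lists of collagen handling passed in edgeR in either comparison with LFG. At an unadjusted p under 0.05, with the lists in the order given next, 9 of 24, 3 of 8, 2 of 6, 1 of 5 and 3 of 13 genes tested were lower in hADMSCs-Exo than in LFG, where 3.68% of all genes were. In REG these were 3 of 25, 1 of 8, 1 of 6, 1 of 5 and 4 of 13, where 6.70% of all genes were, and 0 genes of these lists were higher in either. Without LFG 3, some passed as lower. Between hADMSCs-Exo and LFG, 8 of 26 tested genes of procollagen synthesis and processing, 3 of 9 collagen receptors, 2 of 7 collagenases and gelatinases, 2 of 5 fibril-associated collagens and 3 of 13 genes of TGF-beta signaling passed as lower, where 4.50% of all genes tested did, and 0 as higher. Between REG and LFG the counts of lower genes were 8 of 27, 3 of 9, 3 of 7, 1 of 5 and 5 of 13, where 6.94% of all genes did.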
